A study of Homo sapiens with 18 samples.

Results

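Transcripts of 30 genes that make cholesterol, that sense it through the transcription factor SREBP2, or that move and store it were examined in the established human prostate cancer lines DU145 and CWR22Rv1. The genes were chosen by name, with earlier results of these data known. Each was read from the probe set that carries its symbol alone and has the highest mean over all 18 arrays. By that rule 27 of the 30 genes had a value, out of 19775 genes in all. FDFT1, CYP51A1 and NR1H2 had no probe set of their own symbol alone and are not analysed here. The 27 genes comprised 7 of the mevalonate and isoprenoid steps, 2 that form lanosterol, 7 that turn lanosterol into cholesterol, 4 that control SREBP2, 4 of the LXR branch, and 3 of cholesterol transfer and storage.

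Each line received siRNA with a scrambled sequence as control, siRNA against Stat3, or siRNA against Stat5a together with Stat5b, and total RNA was taken for Affymetrix expression arrays after 48 h. Each of the 6 groups had 3 arrays. All cells, controls included, grew in medium with fetal bovine serum and were transfected with a Lipofectamine reagent. DU145 is an androgen-insensitive line from a brain metastasis, and CWR22Rv1 was derived from a relapsed prostate xenograft and expresses luminal prostate genes. The siRNA sequences are not given in the sources used here, and nothing in the labels says that the triplicates came from separate cultures. P-values then measure only the spread between these arrays, which may be technical.

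Cholesterol is built from acetyl-CoA through mevalonate, isoprenoid diphosphates, squalene and lanosterol. SREBP2, encoded by SREBF2, is made as a membrane protein of the endoplasmic reticulum. SCAP escorts it to the Golgi when membrane sterol is low, where proteases release the part that enters the nucleus and raises transcription of most of the synthesis enzymes. INSIG1 and INSIG2 hold SCAP back when sterol is plentiful. Oxysterols activate the LXR receptors, which raise the exporters ABCA1 and ABCG1 and the ubiquitin ligase MYLIP, a degrader of the LDL receptor.

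The siRNAs lowered their targets: STAT3 was at 32.6% of control in DU145 and 45.7% in CWR22Rv1 with Stat3 siRNA, and STAT5B at 39.1% and 53.4% with Stat5a/b siRNA. STAT5A, at 81.1% and 78.7% of control, did not pass the test in either line. Epithelial genes marked both lines, with KRT18 group means of 12.57 to 13.07, and the luminal genes KLK2, TMPRSS2 and HOXB13 were at 8.45 or above in CWR22Rv1 and at 5.23 or below in DU145, whereas KLK3 was between 6.60 and 6.87 in all groups. The adhesion gene CDH1 moved with the DU145 groups, from a mean of 10.1 in control to 9.11 with Stat3 siRNA and 8.92 with Stat5a/b siRNA; its part in the sterol results was not tested. Markers of endothelial, fibroblast and leukocyte cells were at 5.61 or less in every group. Arrays were more variable in DU145 (median SD of a gene 0.112 to 0.126) than in CWR22Rv1 (0.0724 to 0.0824). The standard error (SE) given below pools all 6 groups, so it understates the spread of DU145 and overstates that of CWR22Rv1.

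The DNA just before the transcription start of the genes was read from RefSeq windows of build GRCh38.p14, which cover 250 bases before and 50 after a start, for 24 of the 27 measured genes. The sequence CCAAT, the box bound by NF-Y, a known partner of SREBP at sterol gene promoters, was searched on both strands, where it reads CCAAT or ATTGG. It was in 34.6% of all 35116 windows and in 21 of the 33 windows of the measured genes. Of the 14 synthesis enzymes with a window, 13 had it in at least 1, PMVK being the exception. That count is per gene, over any of its windows, and no share per gene was computed over all genes. The SC5D windows overlap and hold the same box. TCACNCCAC, a sterol regulatory element, was in 1.13% of all windows and among the measured genes only in that of SREBF2. The E-box CACGTG was in 7.26% of all windows and in 6 of the 33, belonging to LSS, SC5D, SCAP, INSIG1 and ABCA1. The STAT dimer site TTCNNNGAA was in 7.66% of all windows and in 0 of the 33, and the form with TTC and GAA 4 bases apart was in 6.44% and in 1, of IDI1. These are matches of letters in a short window and show neither binding nor its absence. The 250 bases before the start are shown for the factor itself, for 3 of the enzymes that changed most, for the SREBP2 inhibitor INSIG1 and for MYLIP, which changed the other way. Capitals mark CCAAT or ATTGG, TCACCCCAC and CACGTG.
SREBF2, chr22:41832855-41833104, plus strand: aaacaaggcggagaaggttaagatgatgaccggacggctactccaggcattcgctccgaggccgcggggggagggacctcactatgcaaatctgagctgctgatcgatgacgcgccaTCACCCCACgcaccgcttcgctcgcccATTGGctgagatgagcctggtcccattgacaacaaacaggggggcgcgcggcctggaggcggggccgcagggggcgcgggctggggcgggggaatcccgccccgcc
DHCR7, chr11:71448394-71448643, minus strand: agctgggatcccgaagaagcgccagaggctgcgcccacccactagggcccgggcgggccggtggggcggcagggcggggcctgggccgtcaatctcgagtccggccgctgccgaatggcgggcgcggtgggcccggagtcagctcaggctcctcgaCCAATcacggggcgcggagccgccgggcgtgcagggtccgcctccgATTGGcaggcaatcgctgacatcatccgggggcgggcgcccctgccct
TM7SF2, chr11:65111622-65111871, plus strand: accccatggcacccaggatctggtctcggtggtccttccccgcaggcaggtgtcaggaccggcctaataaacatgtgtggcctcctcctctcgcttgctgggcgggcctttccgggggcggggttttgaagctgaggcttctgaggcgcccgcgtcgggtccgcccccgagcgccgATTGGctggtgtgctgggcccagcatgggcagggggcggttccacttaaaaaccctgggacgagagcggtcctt
LSS, chr21:46228775-46229024, minus strand: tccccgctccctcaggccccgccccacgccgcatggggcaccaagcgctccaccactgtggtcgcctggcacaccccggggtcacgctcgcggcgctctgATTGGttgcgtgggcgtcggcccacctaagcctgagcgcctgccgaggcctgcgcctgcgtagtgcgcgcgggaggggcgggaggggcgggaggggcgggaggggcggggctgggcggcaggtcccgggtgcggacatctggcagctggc
INSIG1, chr7:155297628-155297877, plus strand: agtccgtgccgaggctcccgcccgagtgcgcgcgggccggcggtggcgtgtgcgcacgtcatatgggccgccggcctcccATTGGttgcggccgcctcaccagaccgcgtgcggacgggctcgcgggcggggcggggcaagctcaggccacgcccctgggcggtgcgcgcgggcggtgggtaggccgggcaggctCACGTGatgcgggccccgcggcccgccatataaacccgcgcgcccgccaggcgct
MYLIP, chr6:16128836-16129085, plus strand: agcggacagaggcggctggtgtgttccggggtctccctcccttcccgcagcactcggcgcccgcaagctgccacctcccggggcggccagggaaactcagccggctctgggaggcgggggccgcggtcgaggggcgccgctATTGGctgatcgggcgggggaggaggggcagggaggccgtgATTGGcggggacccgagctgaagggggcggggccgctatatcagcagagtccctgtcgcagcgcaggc
DHCR7 has a further annotated start, whose window holds no CCAAT.

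In DU145, Stat5a/b siRNA lowered most of the pathway. Of the 27 genes 18 fell and 2 rose, where 12.5% of all genes fell and 11.8% rose. A gene is counted as changed where limma's Benjamini-Hochberg adjusted p over all genes was under 0.05. The median log2 change was -0.38 over the 27 genes and 0.011 over all genes. Of the 16 synthesis enzymes 12 fell and 0 rose. In these bulk RNA samples, fewer cells expressing a gene and less of its RNA per cell cannot be told apart.

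**Figure D1:**
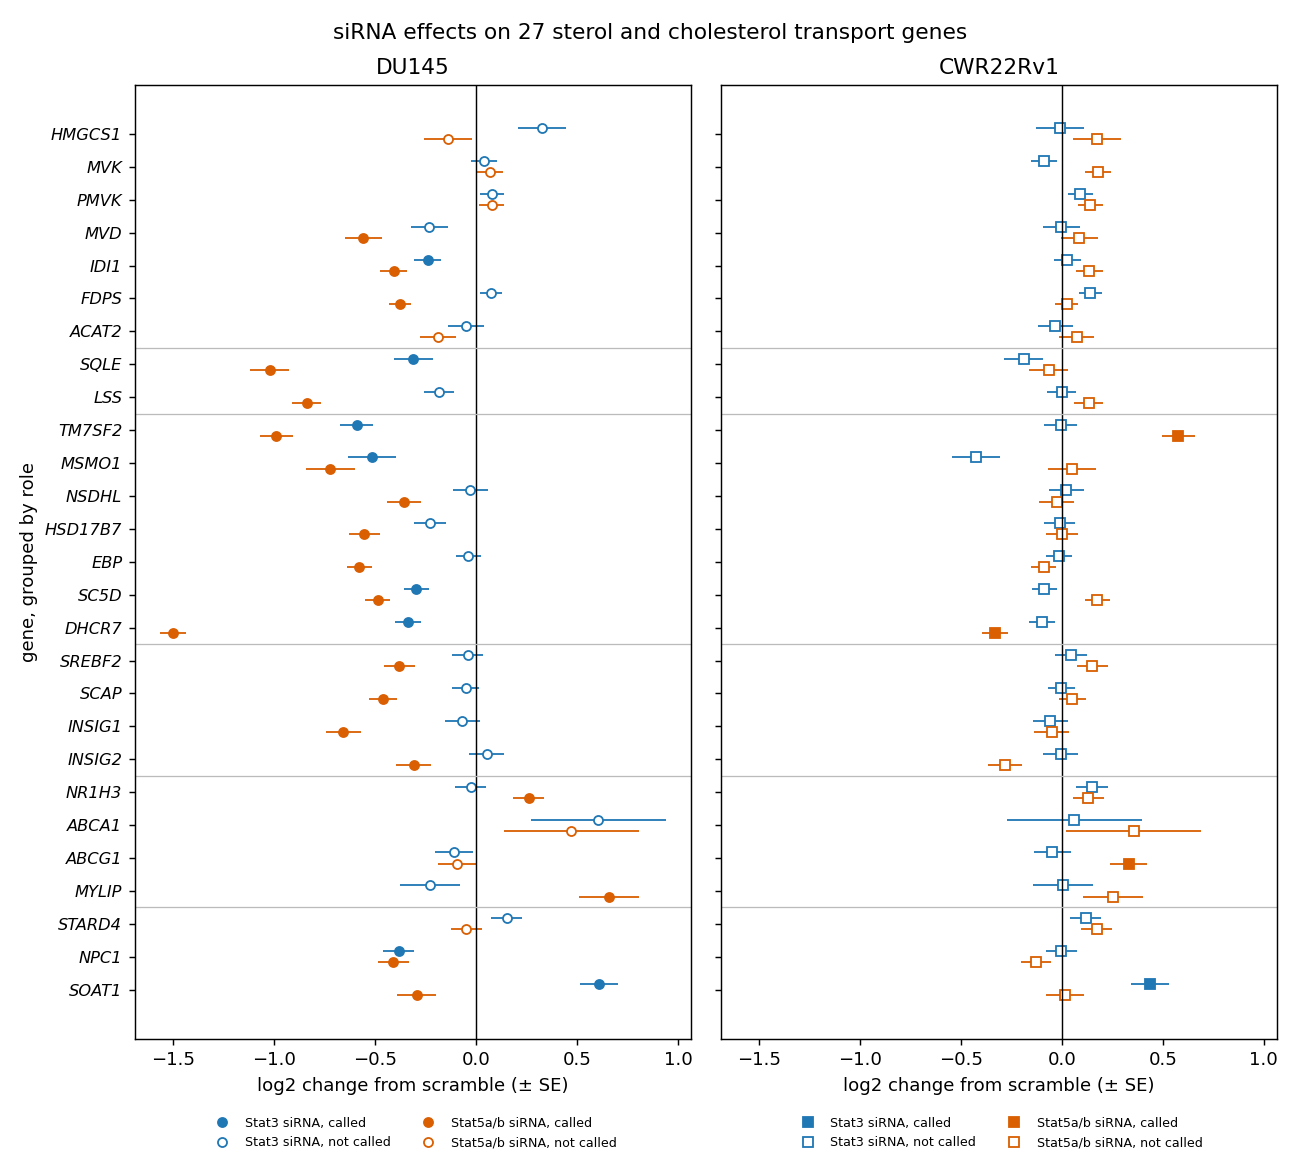
Log2 change from the line's scramble control (x axis, points, with SE as bars) of the 27 genes (y axis, in the order of their roles), in DU145 (left) and CWR22Rv1 (right), for Stat3 siRNA (blue) and Stat5a/b siRNA (orange). Filled symbols passed the test: 18 of the 27 orange points on the left are filled below 0, against 1 on the right.

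The fall was least even among the first steps. Of the 7 mevalonate and isoprenoid genes, MVD (mevalonate diphosphate decarboxylase), IDI1 (isopentenyl diphosphate isomerase) and FDPS (farnesyl diphosphate synthase) fell. MVD stood at 6.71, 6.69 and 6.92 on the DU145 control arrays and at 6.04, 6.24 and 6.37 with Stat5a/b siRNA. Its groups did not overlap, and it was at 67.9% of control (log2 change -0.56, SE 0.093, adjusted p = 0.000345). IDI1 was at 75.4% of control (-0.41, SE 0.067) and FDPS at 77% (-0.38, SE 0.056), both without overlap. HMGCS1, the synthase that makes HMG-CoA, measured -0.14 (SE 0.119, adjusted p = 0.451), and the thiolase ACAT2, which supplies its substrate, -0.19 (adjusted p = 0.136). Both passed without Stat5a/b siRNA replicate 3, at -0.30 (adjusted p = 0.0343) and -0.28 (adjusted p = 0.0275), and ACAT2 also without control replicate 1 (0.0319). The kinases MVK and PMVK measured 0.067 and 0.077. Of the MVK probe sets, however, a pair of dimmer ones fell (-0.29 and -0.45, adjusted p = 0.0127 and 0.00586 in a fit over all single-symbol probe sets), and the mean of all its probe sets was -0.17 (adjusted p = 0.0181).

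Both genes that form lanosterol fell. SQLE, squalene epoxidase, catalyses a rate-limiting step of the pathway. Its DU145 values were 10.29, 10.35 and 10.47 in control, 10.05, 10.0 and 10.13 with Stat3 siRNA, and 9.23, 9.18 and 9.64 with Stat5a/b siRNA. The groups were ordered without overlap, and replicate 3 of the Stat5a/b group lay above the others. Its change with Stat5a/b siRNA was -1.02 (SE 0.095, adjusted p = 1.28e-06), 49.3% of control. LSS, the lanosterol synthase that closes the rings, went from 9.66, 9.71 and 9.55 to 8.82, 8.72 and 8.87. Those groups lay apart by more than their own spread, and the level was 55.9% of control (-0.84, SE 0.072, adjusted p = 5.51e-07).

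All 7 measured genes from lanosterol to cholesterol fell with Stat5a/b siRNA in DU145. DHCR7, the 7-dehydrocholesterol reductase of the last step, fell most of the 27 genes. It stood at 10.27, 10.30 and 10.30 in control, 10.05, 9.84 and 9.96 with Stat3 siRNA, and 8.75, 8.78 and 8.85 with Stat5a/b siRNA. The Stat5a/b arrays lay close together and far below both other groups, at 35.4% of control (-1.50, SE 0.064, adjusted p = 7.79e-10). TM7SF2, a sterol reductase that follows lanosterol demethylation, stood at 8.64, 8.50 and 8.34 in control, 8.04, 7.84 and 7.83 with Stat3 siRNA, and 7.54, 7.42 and 7.55 with Stat5a/b siRNA. Its 3 groups did not overlap, and it was at 50.4% of control with Stat5a/b siRNA (-0.99, SE 0.081, adjusted p = 3.26e-07). MSMO1, the methylsterol oxidase that starts removal of the C4 methyl groups, went from 10.49, 10.64 and 10.64 to 9.64, 9.67 and 10.29. Its replicate 3 lay nearer to control than to the other siRNA arrays, and the change was -0.72 (SE 0.120, adjusted p = 0.00036), or -0.93 without that array. The sterol isomerase EBP was at 67% of control, the reductase HSD17B7 at 68.2%, the desaturase SC5D at 71.4% and the dehydrogenase NSDHL at 78.2%, each without overlap of its arrays with control. NSDHL, with an adjusted p of 0.00567, missed the threshold when only the compared groups were fitted (0.0501).

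The control genes of SREBP2 fell as well, 4 of 4. SREBF2 stood at 8.11, 8.0 and 8.09 on the DU145 control arrays and at 7.76, 7.79 and 7.51 with Stat5a/b siRNA. The groups did not overlap, and the transcript was at 76.9% of control (-0.38, SE 0.077, adjusted p = 0.00165). Its dimmer probe sets gave -0.49 and 0.052. SCAP, its escort, went from 8.75, 8.77 and 8.71 to 8.36, 8.23 and 8.27 (72.7% of control, adjusted p = 9.88e-05). INSIG1, which is itself a target of SREBP and the best-known readout of its activity, went from 10.58, 10.58 and 10.26 to 9.75, 9.76 and 9.94. It was at 63.4% of control (-0.66, SE 0.086, adjusted p = 4.02e-05), and its remaining probe sets gave -0.75 and -0.60. INSIG2, whose transcript is less dependent on SREBP, changed by -0.31 (adjusted p = 0.0146) and lost the threshold without control replicate 3 or without Stat5a/b siRNA replicate 2, and with only the compared groups fitted (adjusted p up to 0.0762).

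The LXR branch did not follow. MYLIP rose with Stat5a/b siRNA in DU145, from 7.89, 8.18 and 7.65 in control to 8.74, 8.71 and 8.24. The groups lay apart by little, between 8.18 in control and 8.24 with the siRNA, and replicate 3 was the lowest array in each. MYLIP changed by 0.66 (SE 0.148, adjusted p = 0.00365), to 158% of control. All of its other 5 probe sets were above 0 as well (0.24 to 0.65), and 3 of them passed. NR1H3, which encodes the receptor LXR alpha, gave 5.88, 5.85 and 6.13 in control and 6.09, 6.23 and 6.31 with Stat5a/b siRNA. Its groups overlapped, its change of 0.26 (adjusted p = 0.0219) lost the threshold in 5 of 14 alternative settings, and its signal was low. ABCA1, the exporter that loads apolipoprotein A1, was spread widely, at 7.87, 8.19 and 7.27 in control and 8.65, 8.66 and 7.43 with Stat5a/b siRNA. With that overlap its 0.47 (SE 0.335) did not pass (adjusted p = 0.345). Without siRNA replicate 3 it was 0.88 (adjusted p = 0.0475). An ABCA1 probe set nearly as bright gave 0.18 (adjusted p = 0.661). ABCG1 measured -0.095 at the low mean level of 5.01 in control.

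Among the transfer and storage genes, NPC1, which moves cholesterol out of lysosomes, fell in DU145. It stood at 11.92, 11.89 and 11.82 in control, and at 11.54, 11.40 and 11.47 with Stat5a/b siRNA (75.3% of control, adjusted p = 0.000823). The arrays were clearly apart, but the 3 dimmer NPC1 probe sets gave 0.38, 0.10 and -0.23, and the mean of all 4 was -0.037 (adjusted p = 0.858). SOAT1, which esterifies cholesterol for storage, measured -0.29 (adjusted p = 0.0322) with overlapping arrays and lost the threshold in 6 of 14 settings. STARD4, a soluble sterol carrier, measured -0.047 (adjusted p = 0.71).

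The 3 arrays of the DU145 Stat5a/b group were not equal. Averaged over the 16 synthesis enzymes, each array's distance from the mean of the control arrays was -0.60, -0.62 and -0.39 for replicates 1, 2 and 3, while the control arrays themselves lay between -0.033 and 0.038. Every Stat5a/b array was thus below every control array, and replicate 3 was the least reduced. Without replicate 3, 19 of the 27 genes fell and 2 rose, and the median was -0.42.

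**Figure D2:**
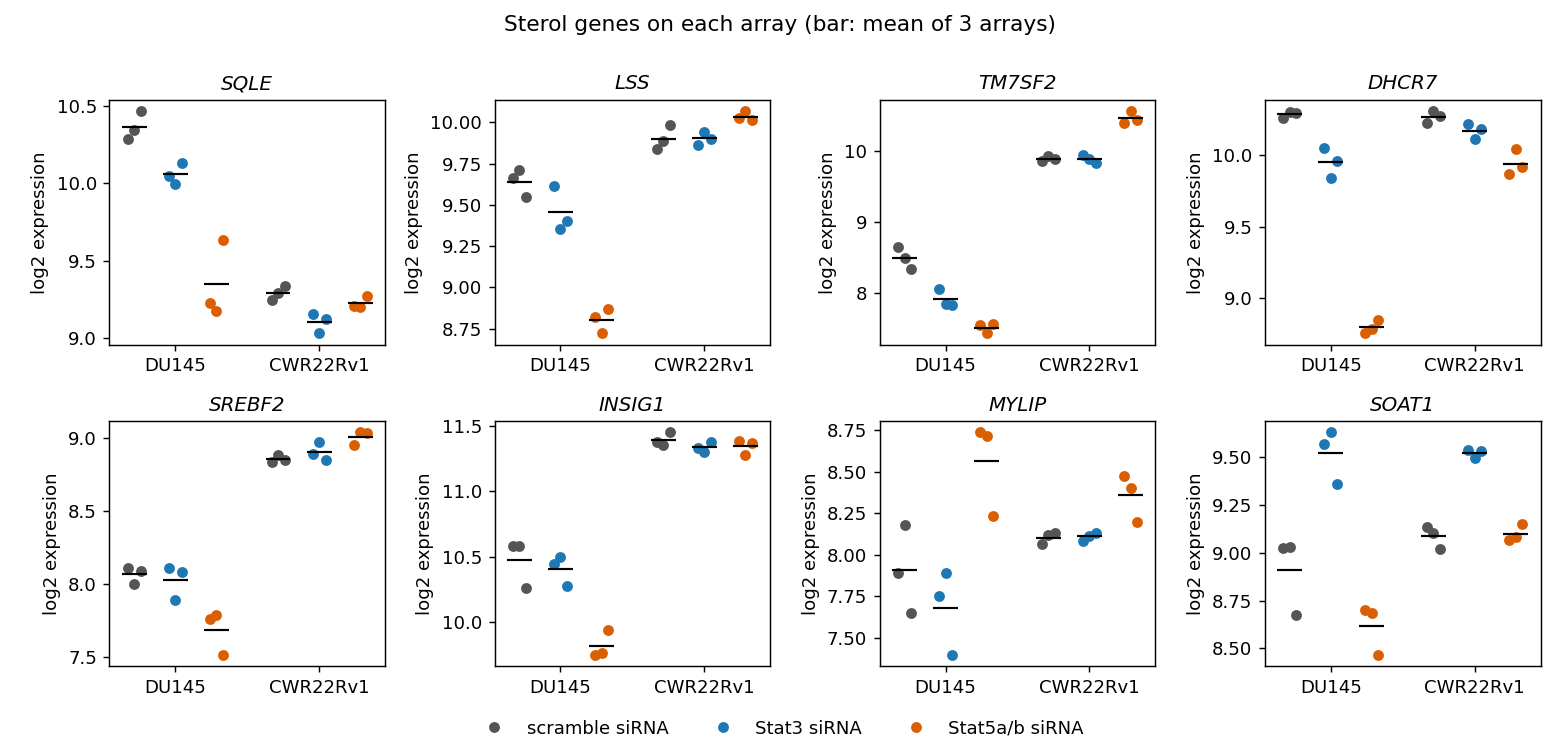
Log2 expression (y axis, not starting at 0, a scale of its own in each panel) of 8 genes on every array, by line (x axis) and siRNA (grey scramble, blue Stat3, orange Stat5a/b); points are arrays and bars group means. In DU145 the orange points of SQLE, LSS, TM7SF2, DHCR7, SREBF2 and INSIG1 lie below all grey points and those of MYLIP above, while in CWR22Rv1 the TM7SF2 points lie above control; the SOAT1 points with Stat3 siRNA are the highest in both lines.

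With Stat3 siRNA in DU145 fewer of the genes changed: 7 fell and 1 rose of 27, against 8.25% and 7.51% of all genes, with a median of -0.051 over the 27 (0.006 over all genes). The genes that fell were IDI1, SQLE, TM7SF2, MSMO1, SC5D, DHCR7 and NPC1, all of which also fell with Stat5a/b siRNA, measured against the same 3 control arrays. TM7SF2 fell most, to 66.5% of control (-0.59, SE 0.081, adjusted p = 9.04e-05). MSMO1 was at 10.0, 10.11 and 10.12, below its control arrays, and at 69.9% of control (-0.52, SE 0.120, adjusted p = 0.00715). DHCR7 was at 79.1% (-0.34, adjusted p = 0.00157), NPC1 at 76.7% (-0.38, adjusted p = 0.00212) and SC5D at 81.4% (-0.30, adjusted p = 0.00307). SQLE (-0.31, adjusted p = 0.0352) and IDI1 (-0.24, adjusted p = 0.0226) lost the threshold in 6 and 5 of 14 settings. SC5D lost it with the mean of its probe sets (-0.115, adjusted p = 0.501), and MSMO1 with only the compared groups fitted (0.072). With the mean of all probe sets of a gene 4 genes fell and 1 rose, and 5 passed in all when only the compared groups were fitted.

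Among the other enzymes, MVD (-0.23, adjusted p = 0.113), HSD17B7 (-0.23, adjusted p = 0.0605) and LSS (-0.18, adjusted p = 0.103) were measured lower without passing. HSD17B7 passed with quantile normalisation (0.0414), without dim genes (0.0353) or with a variance trend (0.0275). LSS passed with that trend (0.0498) and without Stat3 siRNA replicate 1 (0.016). The 4 SREBP2 control genes did not pass with Stat3 siRNA in DU145. SREBF2 measured -0.041 (SE 0.077), SCAP -0.051, INSIG1 -0.068 and INSIG2 0.053, with adjusted p of 0.687 or more. However, the dimmest INSIG1 probe set fell (-0.30, adjusted p = 0.0373), whereas its remaining one gave -0.090 (adjusted p = 0.571). HMGCS1 measured 0.33 (SE 0.119, adjusted p = 0.0772), its arrays at 8.92, 8.97 and 9.22 overlapping the control arrays at 8.63, 8.57 and 8.92. It passed with the replicate number as a block (adjusted p = 0.00191), and also with quantile normalisation, cyclic loess or a variance trend and without control replicate 3 (0.0272 to 0.0459). The other HMGCS1 probe set, nearly as bright, gave -0.039 (adjusted p = 0.96). ABCA1 stood at 8.45, 8.86 and 7.84 with Stat3 siRNA, against 7.87, 8.19 and 7.27 in control. The groups overlapped, but each array was above the control array of its number. Its change of 0.61 (SE 0.335) did not pass (adjusted p = 0.267) and passed with the block (adjusted p = 0.0426). An ABCA1 probe set nearly as bright gave 0.77 (SE 0.241) and lay at the threshold without passing (adjusted p = 0.05). With the block 7 genes fell and 3 rose.

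SOAT1 rose with Stat3 siRNA in both lines. Its DU145 values were 9.02, 9.03 and 8.68 in control and 9.57, 9.63 and 9.36 with the siRNA, a change of 0.61 (SE 0.095, adjusted p = 0.000297). In CWR22Rv1 they were 9.14, 9.10 and 9.02 against 9.54, 9.49 and 9.53, a change of 0.44 (adjusted p = 0.0135). Neither pair of groups overlapped, and the CWR22Rv1 call was lost without any one of 3 arrays (control replicate 3, Stat3 siRNA replicates 1 and 3; adjusted p up to 0.0711). The difference of its Stat3 siRNA effect between the lines was -0.17 (SE 0.134, adjusted p = 0.573). The SOAT1 probe sets disagreed: a dimmer one rose more (0.86 and 0.79 in DU145 and CWR22Rv1), whereas one nearly as bright did not pass (0.15 and 0.15, adjusted p = 0.367 and 0.569).

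The siRNAs were also set against each other within DU145, without the control arrays. Compared with Stat3 siRNA, Stat5a/b siRNA gave lower values for 16 of the 27 genes and higher values for 2, where 11.2% and 11% of all genes did. With only the DU145 groups fitted the counts were 10 lower and 1 higher. Of the 18 genes that Stat5a/b siRNA lowered against control, 15 were lower than with Stat3 siRNA too; IDI1 (-0.17, adjusted p = 0.0899), MSMO1 (-0.21, adjusted p = 0.257) and NPC1 (-0.027, adjusted p = 0.842) did not pass. DHCR7 differed most, at 44.7% of its level with Stat3 siRNA (-1.16, SE 0.064, adjusted p = 3.89e-09), followed by SOAT1 (-0.90) and SQLE (-0.71). HMGCS1 also differed (-0.46, SE 0.119, adjusted p = 0.00985), although neither siRNA passed for it against control. Its other probe set gave -0.32 (adjusted p = 0.476). MYLIP was 1.84 times its level with Stat3 siRNA (0.88, SE 0.148, adjusted p = 0.000377).

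In CWR22Rv1, Stat5a/b siRNA changed 3 of the 27 genes, 2 higher and 1 lower, where 3.16% of all genes rose and 3.30% fell. The median was 0.087 (0.024 over all genes), and of the 16 enzymes 12 measured above 0, as did 11325 of all 19775 genes. With only the compared groups fitted 5 rose and 2 fell, and with the mean of all probe sets 1 rose and 0 fell. DHCR7 was the gene that fell with this siRNA in both lines. Its CWR22Rv1 values were 10.23, 10.31 and 10.28 in control and 9.87, 10.04 and 9.92 with Stat5a/b siRNA, with no overlap (79.6% of control, -0.33, SE 0.064, adjusted p = 0.00499). Its other probe set gave -0.14 (adjusted p = 0.622), and the mean of both -0.24 (adjusted p = 0.0985). TM7SF2 rose, from 9.87, 9.93 and 9.89 to 10.40, 10.57 and 10.45 (149% of control, 0.58, SE 0.081, adjusted p = 0.000321), and passed in all 14 alternative settings. ABCG1 rose by 0.33 (adjusted p = 0.0434) from a low level of 5.72, 5.68 and 5.76 to 6.10, 5.98 and 6.08, and lost the threshold in 10 of 14 settings.

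The remaining enzymes showed small differences in CWR22Rv1 with that siRNA. All 7 mevalonate and isoprenoid genes measured above 0 (0.025 to 0.18), as did 11325 of all 19775 genes. By limma 0 passed, and MVK and PMVK had an unadjusted p under 0.05. With only the compared groups fitted, HMGCS1 (0.17, adjusted p = 0.028) and MVK (0.18, adjusted p = 0.0398) passed as higher. The later enzyme SC5D (0.18) passed with a variance trend (0.0448). SQLE stood at 9.25, 9.29 and 9.33 in control and 9.21, 9.20 and 9.27 with Stat5a/b siRNA (-0.065, SE 0.095). SREBF2 measured 0.15 (SE 0.077, adjusted p = 0.334), SCAP 0.053 and INSIG1 -0.049 (SE 0.086, adjusted p = 0.857). INSIG2 went from 7.48, 7.50 and 7.53 to 7.29, 7.30 and 7.08, without overlap. Its change of -0.28 did not pass (adjusted p = 0.0656) but passed with cyclic loess, without dim genes, with a variance trend, with the replicate block or with only the compared groups (0.0212 to 0.0462). MYLIP gave 8.07, 8.12 and 8.13 in control and 8.47, 8.40 and 8.20 with the siRNA (0.25, SE 0.148, adjusted p = 0.423), and passed with only the compared groups (0.0434).

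Stat3 siRNA in CWR22Rv1 raised SOAT1 and changed no other of the 27 genes (2.75% of all genes rose and 2.02% fell; median -0.003 and -0.004). MSMO1 came closest, at 11.67, 11.59 and 11.69 in control and 11.25, 11.20 and 11.23 with the siRNA. The groups were clearly apart, and the change was -0.42 (SE 0.120, adjusted p = 0.0559). It passed with cyclic loess (0.042), without dim genes (0.0349), with a variance trend (0.0125), with the replicate block (0.0355) and with only the compared groups (0.000924). In the last of these SQLE passed too (-0.19, 0.045), so that 3 genes did. FDPS measured 0.14 (adjusted p = 0.189), and the remaining synthesis enzymes lay between -0.097 and 0.093. Between the siRNAs in CWR22Rv1, 5 genes were higher with Stat5a/b siRNA (MVK, TM7SF2, MSMO1, SC5D and ABCG1) and 3 lower (DHCR7, INSIG2 and SOAT1), against 4.70% and 6.05% of all genes. TM7SF2 (0.58, adjusted p = 0.000192) and MSMO1 (0.48, adjusted p = 0.0171) led the first and SOAT1 (-0.42, adjusted p = 0.00803) the second. The SOAT1 probe set nearly as bright gave -0.20 (adjusted p = 0.236), and the dimmer one -0.71 (adjusted p = 0.000548). The mean of all probe sets left 3 higher and 2 lower, and 3 to 5 genes passed in all without any 1 of the 6 arrays.

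Whether an siRNA acted differently in the 2 lines was tested as the difference of its effects, CWR22Rv1 minus DU145. For Stat5a/b siRNA that difference had a median of 0.43 over the 27 genes (0.013 over all genes). The difference was above 0 in 24 of the 27 genes and in 10307 of all 19775. It passed in 15, all positive in this fit, where 6.75% of all genes passed as positive and 5.17% as negative. Of the 16 synthesis enzymes 11 passed. TM7SF2 gave 1.57 (SE 0.114, adjusted p = 1.73e-06), having fallen in DU145 and risen in CWR22Rv1. With the replicate block 17 passed as positive and 1 as negative, MYLIP (-0.40, adjusted p = 0.026, against 0.243 without it). DHCR7 gave 1.17 (SE 0.091), with a fall in both lines, and LSS 0.97 (SE 0.102) and SQLE 0.96 (SE 0.134), with no called change in CWR22Rv1. SREBF2 (0.53), SCAP (0.51) and INSIG1 (0.61) passed, with adjusted p between 0.00245 and 0.00494. INSIG2 did not (0.027, SE 0.121, adjusted p = 0.924), since it measured -0.31 in DU145 and -0.28 in CWR22Rv1. For Stat3 siRNA, 1 gene passed, TM7SF2 (0.59, SE 0.114, adjusted p = 0.0121), with 1.82% of all genes positive and 1.18% negative. Without DU145 Stat3 siRNA replicate 1 the count was 2.

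**Figure D3:**
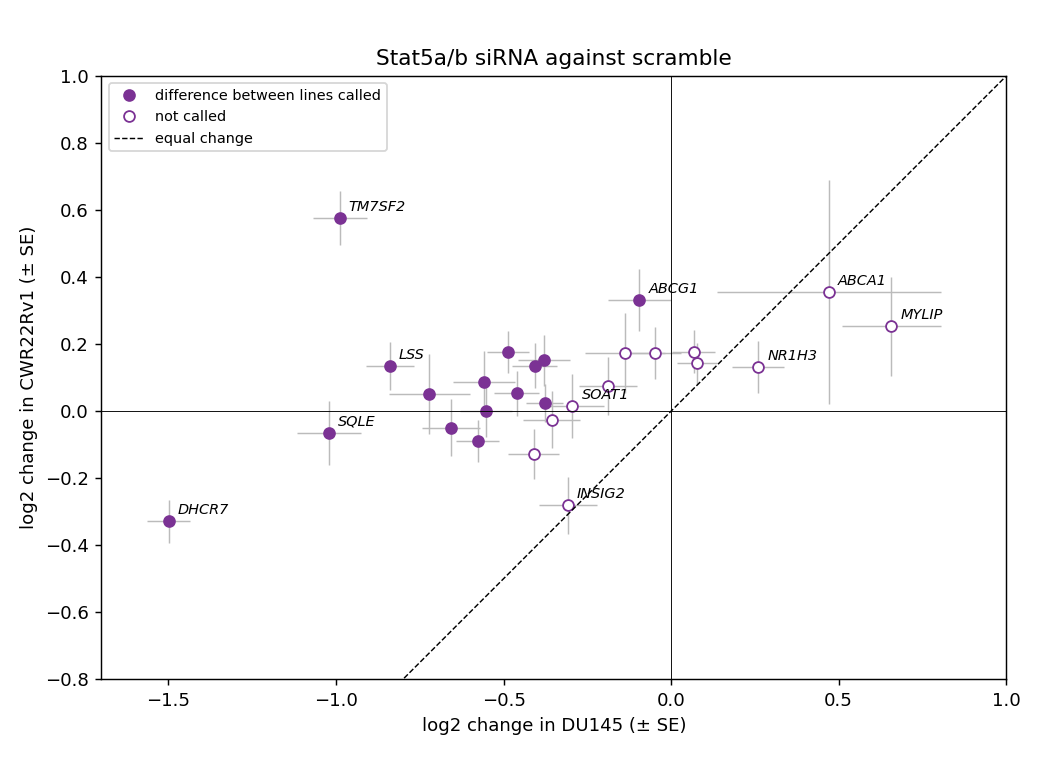
Log2 change with Stat5a/b siRNA against scramble in DU145 (x axis) and CWR22Rv1 (y axis) for the 27 genes, with SE bars; filled points are the 15 genes whose effects differed between the lines and the dashed line marks equal change. All 15 lie above the dashed line, TM7SF2 farthest from it, and INSIG2 lies close to it.

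The lines also differed before any knockdown, as a description of 3 control arrays against 3. In CWR22Rv1, 17 of the 27 genes were higher and 4 lower than in DU145, where 30% and 27% of all genes were. The median difference was 0.45 (0.033 over all genes). NPC1 differed most, at 11.92, 11.89 and 11.82 in DU145 and 8.48, 8.57 and 8.53 in CWR22Rv1 (-3.35, SE 0.076). ABCA1 was lower by a similar step (-3.02, SE 0.335), at 5.0, 4.31 and 4.95 in CWR22Rv1. INSIG2 (-1.32, SE 0.086) and SQLE (-1.08, SE 0.095) were the others that were lower. NR1H3 (1.54), TM7SF2 (1.40), MSMO1 (1.06), EBP (0.97), INSIG1 (0.92) and SREBF2 (0.79) led those that were higher. DHCR7 measured alike, at 10.29 and 10.27 (-0.018, SE 0.064). The mean of all probe sets turned the sign for IDI1 (0.10 to -0.55, adjusted p = 1.02e-05) and HMGCS1 (0.45 to -0.007). The SOAT1 probe sets disagreed here too. The one reported gave 0.175 without passing, one nearly as bright -1.09 (adjusted p = 2.86e-08), and the dimmer one 0.38 (adjusted p = 0.00684).

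**Figure D4:**
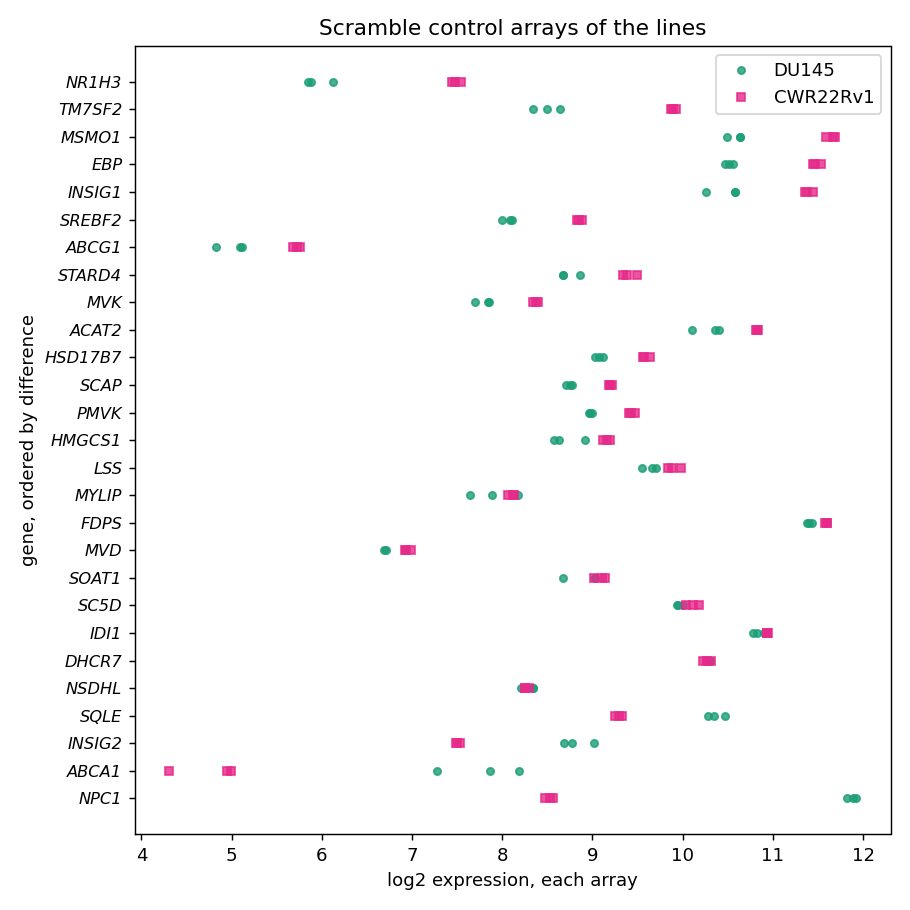
Log2 expression (x axis) of the 27 genes on the 3 scramble control arrays of DU145 (green circles) and of CWR22Rv1 (pink squares), the genes (y axis) ordered by the difference. NPC1 and ABCA1 at the bottom lie far lower in CWR22Rv1 than in DU145, NR1H3 and TM7SF2 at the top lie higher, and the points of DHCR7 coincide.

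Of the 27 genes 21 changed in at least 1 of the 4 comparisons with control. HMGCS1, MVK, PMVK, ACAT2, ABCA1 and STARD4 changed in none, although with the replicate block HMGCS1 and ABCA1 passed for Stat3 siRNA and ACAT2 (adjusted p = 0.0407) for Stat5a/b siRNA in DU145. The reading depends on the probe set for some genes, as 16 of the 27 have more than 1. For the genes that changed with Stat5a/b siRNA in DU145 there were 28 further probe sets, of which 22 had the same sign, 14 passed in the same direction and 0 in the opposite one. With Stat3 siRNA in DU145, 2 further probe sets of genes without a call passed, of INSIG1 (-0.30) and MYLIP (-0.49).

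**Figure D5:**
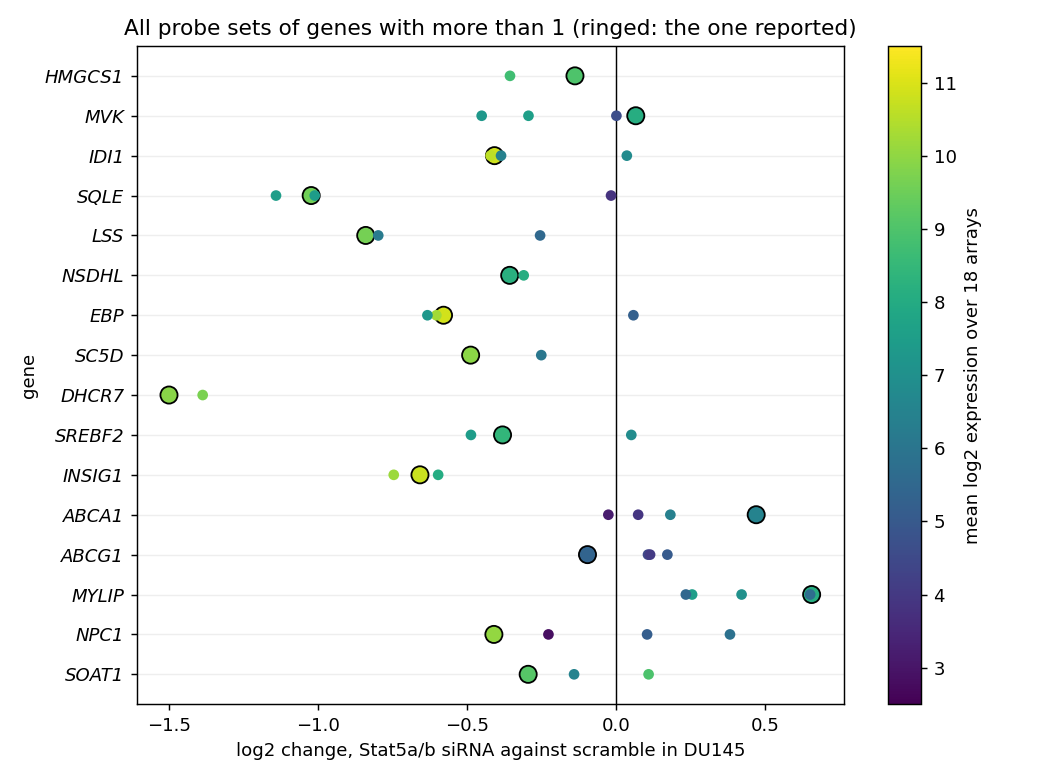
Log2 change with Stat5a/b siRNA against scramble in DU145 (x axis) for every probe set of the 16 genes that have more than 1 (y axis), coloured by its mean log2 expression over 18 arrays; the ringed point is the probe set reported. The probe sets of DHCR7 (-1.50 and -1.39) and INSIG1 lie together on the left, those of MYLIP on the right, and those of NPC1 and SOAT1 fall on both sides of 0.

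A list of 56 neighbouring genes of the same pathways, of which 53 had a value, was read beside them. With Stat5a/b siRNA in DU145, 18 of the 53 fell and 4 rose (12.5% and 11.8% of all genes), with a median of -0.085. Of the 8 genes of SREBP activation and sterol-regulated degradation 6 fell, of the 14 of the isoprenoid branch 4, and of the 22 of uptake, transfer and storage 7, with 2 of these higher. Of the 4 genes listed as accessory to the steps after squalene 1 fell and 2 rose, TMEM97 and FAXDC2. The grouping was set for this list, and a part of TMEM97 in those steps was not tested. Of the 5 oxysterol enzymes 0 passed in any of the 4 comparisons with control by limma. At most 1 in each had an unadjusted p under 0.05. ERLIN2, a scaffold that takes INSIG-bound proteins to degradation, fell to 39.4% of control, from 9.28, 9.38 and 9.59 to 8.02, 7.98 and 8.21 (-1.34, SE 0.080, adjusted p = 1.16e-08). MBTPS1, the first protease that cuts SREBP, went from 9.04, 9.12 and 8.87 to 8.42, 8.09 and 8.18 (58.2% of control, -0.78, adjusted p = 7.82e-06), and MBTPS2, the second, was at 71.6%. VLDLR, a lipoprotein receptor related to that for LDL, was at 53.3% of control (-0.91, SE 0.115, adjusted p = 2.76e-05). GRAMD1B, which carries plasma membrane cholesterol to the endoplasmic reticulum, rose by 0.66 (adjusted p = 0.000959), as did TMEM97 (0.32) and FAXDC2 (0.29).

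In CWR22Rv1 the same siRNA lowered 7 of the 53 and raised 2 (3.30% and 3.16% of all genes). VLDLR, at 5.60, 5.62 and 5.48 in control and 4.64, 4.40 and 4.62 with the siRNA, was at 49.5% (-1.02, adjusted p = 3.81e-05). PGGT1B, a subunit of a protein prenyltransferase, was at 65.5% (-0.61, adjusted p = 0.00552), MBTPS1 at 76.2% (-0.39, adjusted p = 0.0112) and ERLIN2 at 76.6%. TMEM97 rose here too (0.30, adjusted p = 0.00511), as did LPCAT3, an LXR-responsive phospholipid enzyme (0.33, adjusted p = 0.0275). The ERLIN2 effect differed between the lines (0.96, SE 0.114, adjusted p = 8.25e-05), and 12 of the 53 differed as positive and 1 as negative (6.75% and 5.17% of all genes).

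With Stat3 siRNA, 10 of the 53 neighbouring genes fell and 3 rose in DU145 (8.25% and 7.51% of all genes), and 3 fell and 2 rose in CWR22Rv1 (2.02% and 2.75%). In DU145 the lower ones with the largest change were GRAMD1C (-0.73, adjusted p = 0.00175), ERLIN2 (-0.66, adjusted p = 3.07e-05) and SREBF1 (-0.49, adjusted p = 0.0451), which encodes the related factor SREBP1. TMEM97 (0.45), GRAMD1B (0.38) and PDSS2 (0.30) rose, the last with a sign that turned over the mean of its probe sets (-0.098, adjusted p = 0.326). In CWR22Rv1 the receptor LRP8 (-0.36, adjusted p = 0.0159), the lysosomal lipase LIPA (-0.30, adjusted p = 0.00567) and NUS1 (-0.23) fell, and GRAMD1A (0.61, adjusted p = 0.0106) and LPCAT3 (0.32) rose.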

How the data were processed

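Per the submitters' processing notes, the array values were made with RMA and limma; versions are not given in the sources used here. The table as the authors deposited it holds log2 expression values of 54675 probe sets on 18 arrays, with array medians of 5.16 to 5.20. How far a value lies above background is unknown, since no detection calls were used, and the number of arrays limits the precision. Probe sets were named through the platform's annotation: 41091 carry 1 symbol, 1801 several and 11721 none. Of the probe sets with 1 symbol, the one brightest on average stood for each of 19775 genes, without further normalisation.

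In limma 3.58.1 (R 4.3.3), lmFit estimated 6 group means over all 18 arrays and eBayes tested each contrast, the effect of an siRNA differing between lines included. P-values were adjusted by Benjamini-Hochberg over all genes within a comparison. The fit was tested on simulated data. All arrays differed, with correlations within groups of 0.9933 to 0.9975, and none was left out.

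The members and the 56 neighbouring genes were chosen with earlier results of these data known. All members are described. Of the neighbouring genes, the called ones with the largest change in each direction are named, and a few others were named after their values were seen. Only between DU145 control and Stat3 siRNA did the deviations of all same-numbered arrays correlate over 0.1 (0.197, 0.158 and 0.328). Between control and Stat5a/b siRNA the correlations were lower, at 0.064, 0.122 and 0.175 in DU145 and 0.139, 0.091 and 0.053 in CWR22Rv1. The pairing comes from these data, not from the labels. Alternatives changed the probe set rule, scaling, dim-gene filter, variance trend, replicate block, the groups fitted, or left out an array. For a comparison within a line, fitting only the compared groups kept every group of that line. Promoter windows came from RefSeq (GRCh38.p14).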

Additional observations from a re-analysis of the deposited data

Results flagged for a closer look

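The effect of an siRNA differed between the lines, by limma's test of the difference itself (CWR22Rv1 minus DU145, log2), for 16 results among the members and 7 among the named neighbouring genes. For Stat5a/b siRNA the mevalonate and isoprenoid genes MVD (0.6449), IDI1 (0.5426) and FDPS (0.4022) differed, as did SQLE (0.9567) and LSS (0.9726). Of the later enzymes, TM7SF2 (1.5661), DHCR7 (1.1705), MSMO1 (0.7725), SC5D (0.6631), HSD17B7 (0.5537) and EBP (0.4883) differed. In the control of SREBP2 and the LXR branch it was INSIG1 (0.608), SREBF2 (0.531), SCAP (0.5134) and ABCG1 (0.4259), the last with an adjusted p of 0.0456. The called changes behind these were falls in DU145, except that ABCG1 rose in CWR22Rv1, TM7SF2 fell in DU145 and rose in CWR22Rv1, and DHCR7 fell in both.

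Of the neighbouring genes, ERLIN2 (0.9588), GRAMD1A (0.6967), SCARB1 (0.5776) and GRAMD1B (-0.5755, adjusted p = 0.042) differed for Stat5a/b siRNA. For Stat3 siRNA, TM7SF2 (0.585, adjusted p = 0.0121), GRAMD1A (0.7208, adjusted p = 0.0422), ERLIN2 (0.4969, adjusted p = 0.0275) and OSBPL2 (0.3464, adjusted p = 0.0443) did. With 3 arrays a group, single arrays were not tested as outliers.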

How the results depend on the processing

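The number of the 27 genes called stayed within 1.5 times that reported for Stat5a/b siRNA in DU145 (20), for its difference between the lines (15) and for the control arrays of the lines (21). Leaving out 1 array at a time gave 18 to 21, 14 to 16 and 20 to 22 for these, 7 to 8 for Stat3 siRNA in DU145 (8), 14 to 19 between the siRNAs in DU145 (18), 2 for Stat5a/b siRNA in CWR22Rv1 (3), 0 to 1 for Stat3 siRNA there (1), 3 to 5 between the siRNAs there (8), and 1 to 2 for the difference of the Stat3 siRNA effect (1). The mean of all probe sets of a gene gave 5 for Stat3 siRNA in DU145, 1 for Stat5a/b siRNA in CWR22Rv1 and 5 between the siRNAs there. Fitting only the compared groups gave 5 for Stat3 siRNA in DU145, 11 between the siRNAs in DU145, and 3 and 7 for Stat3 and Stat5a/b siRNA in CWR22Rv1. For Stat3 siRNA in CWR22Rv1, cyclic loess gave 2, leaving out genes with a mean under 5 gave 2, and a variance trend gave 3; the last of these and the filter gave 2 each for the difference of the Stat3 siRNA effect. Over all genes in that CWR22Rv1 comparison, quantile normalisation turned the split from 544 higher of 944 called to 426 of 922. Over the mean of all probe sets the sign turned for PDSS2 with Stat3 siRNA in DU145 (-0.098), MVK with Stat5a/b siRNA in DU145 (-0.168), PDSS1 between the siRNAs in DU145 (-0.017), and between the lines for HMGCS1 (-0.007), IDI1 (-0.551), ERLIN2 (-0.180) and OSBPL2 (0.302). The cause of these moves was not tested, but a dim probe set counts there as much as a bright one, and fewer arrays enter when only some groups are fitted.

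The replicate numbers paired the DU145 control and Stat3 siRNA arrays most clearly, where deviations of all 3 same-numbered pairs correlated over 0.1. In the other pairs of groups at least 1 pair did not, with correlations of 0.012 to 0.175 in DU145 and -0.067 to 0.139 in CWR22Rv1. Between control and Stat5a/b siRNA all same-numbered pairs were positive in both lines (0.064 to 0.175 in DU145, 0.053 to 0.139 in CWR22Rv1). Over all groups 23 of 36 checks were best with their own number. For Stat3 siRNA in DU145 the block added the calls of HMGCS1 and ABCA1 and changed no other call among the genes named. With the replicate number as a block, 10, 21, 2 and 4 genes were called for Stat3 and Stat5a/b siRNA in DU145 and then in CWR22Rv1, 18 and 8 between the siRNAs, 3 and 18 for the differences of the Stat3 and Stat5a/b siRNA effects (2 and 17 of these positive), and 18 between the lines.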

Other observations

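In DU145, ABCA1 and MYLIP were lowest on the replicate 3 array of every group. ABCA1 measured 7.27 in control, 7.84 with Stat3 siRNA and 7.43 with Stat5a/b siRNA there, against 7.87 to 8.86 on the other DU145 arrays. MYLIP was at 7.65, 7.40 and 8.24, whereas the other arrays of the same groups lay between 7.75 and 8.74. ABCG1 was lowest on replicate 3 with either siRNA (4.81 and 4.75) but highest on it in control (5.12). In the Stat5a/b group the same array carried the least reduced SQLE (9.64), MSMO1 (10.29) and NSDHL (8.18). These values were picked out after they were seen.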
